A study of Arabidopsis thaliana with 21 samples.

Results

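A line of Arabidopsis thaliana over-expressing AtIPCS1 (At1++) was set against a line over-expressing AtIPCS2 (the libraries labelled At2++), gene by gene, in the transcriptome of whole seedlings. The comparison holds 3 libraries of At1++ and 3 libraries labelled At2++, that is 6 of the 21 libraries sequenced. Each of the 6 over-expressing lines of the study carries the cDNA of 1 of the 3 AtIPCS isoforms behind the constitutive viral promoter of the vector pK7WG2 in the Col-0 background, with 2 lines per isoform. The third group used here is untransformed Col-0, with 3 libraries. All seedlings were 10 days old, grown on agar in long days and given no treatment. The pair was chosen by the likeness of its log2 fold changes against Col-0. Across the 22222 genes tested, the Pearson correlation of the log2 fold changes against Col-0 was 0.8343 for this pair, the highest of the 15 pairs of lines, and 0.8306 for the next pair, the libraries labelled At2+ and At3++. This value is a description of how the pair was chosen, since both lines were set against the same 3 Col-0 libraries and genes are not independent replicates. How many genes separated the pair is fixed in part by that choice, so that the count below is read with it in mind. By the number of genes called, as defined below, the pair ranked 3 of 15, with 711 genes. Fewer were called between the libraries labelled At2+ and At3++ (396) and between At1+ and the libraries labelled At3+ (525).

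Inositol phosphorylceramide synthase (IPCS) transfers the inositol phosphate head group of phosphatidylinositol onto ceramide. The product is the precursor of the glycosyl inositol phosphorylceramides, which are the main sphingolipids of the plant plasma membrane, and ceramide itself is linked in Arabidopsis to salicylic acid and cell death. Much of what follows concerns genes of embryo maturation. Storage globulins and albumins, oleosins and late embryogenesis abundant (LEA) proteins accumulate in the ripening seed, and their genes are normally silenced when the seedling grows.

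Values are normalized counts, which are reads on a gene divided by a size factor of the library. The libraries of the series held 12733113 to 17210244 reads on genes. Replicates 1 and 2 labelled At3+ were identical and were counted as 1, which left 20 libraries in the fit. Fold changes are At1++ over the libraries labelled At2++ on the scale log2(value + 1), and a gene was called where limma gave an adjusted p under 0.05 together with a change of at least 1 on this scale in either direction. The labels do not say whether the replicates were separate cultures. The paper calls them technical replicates of a line under its fold changes and experimental replicates in its table of expressed genes. The SDs and p-values here thus measure only the spread between these libraries, which may be technical. Each line is a single transformed line, and the isoform, the amount of its transcript and anything else particular to a line cannot be told apart. In whole seedlings, fewer cells of a type and less RNA per cell cannot be told apart either.

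The transcripts of the transgenes were read first. AtIPCS1 (AT3G54020) stood at 42086, 43931 and 50094 normalized counts in At1++, against 236, 333 and 248 in the libraries labelled At2++ and 175, 176 and 164 in Col-0. The log2 fold change of At1++ over the libraries labelled At2++ was 7.39 with a standard error of 0.12 (limma adjusted p = 3.83e-24). AtIPCS2 (AT2G37940) stood at 963, 741 and 703 in At1++, against 12170.3, 13119.7 and 12602 in the libraries labelled At2++ and 834, 789 and 845 in Col-0. Its log2 fold change was -3.99 (standard error, SE, 0.08, limma adjusted p = 2.82e-22). The 3 and 3 values lay far apart for both transcripts, and AtIPCS1 was also above each Col-0 library in every library labelled At2++. By name the ++ line of an isoform is the stronger one, but AtIPCS2 averaged 12631 in the libraries labelled At2++ and 22612 in those labelled At2+, so that the libraries are called by their label here. The + and ++ labels of AtIPCS2 may be exchanged between the deposited table and the paper, since the numbers of genes detected per library that the paper lists for At2+ and At2++ match the deposited libraries of the other label almost exactly, and likewise for At3+ and At3++. The libraries labelled At2++ here may thus be those of the line that the paper calls At2+. The transcript of the transgene was 167 times higher in At1++ than in the libraries labelled At2++ for AtIPCS1, and 15.74 times higher in the libraries labelled At2++ than in At1++ for AtIPCS2.

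AtIPCS3 (AT2G29525), which neither line over-expresses, stood at 318, 47.6 and 44.7 in At1++, against 58.8, 54.2 and 36.5 in the libraries labelled At2++ and 58.4, 52.3 and 62.3 in Col-0. Replicate 1 of At1++ was alone above all other values, and the groups overlapped. The log2 fold change was 0.84 (95% interval 0.02 to 1.66, limma adjusted p = 0.122), and without that replicate it was -0.080 (limma adjusted p = 0.774). On the recovered reads, edgeR gave 1.47 (adjusted p = 0.0192) and DESeq2 1.46 (adjusted p = 0.0302) with that replicate included. The same library had the highest count of PR1, a marker of salicylic acid responses, among the 3 of At1++ (16.4, 0.821 and 1.94). Without it, 265 genes were called higher and 440 lower in At1++, against 305 and 406 with it. Of the fits that left out 1 library, this gave the fewest genes higher and the most lower.

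**Figure D1:**
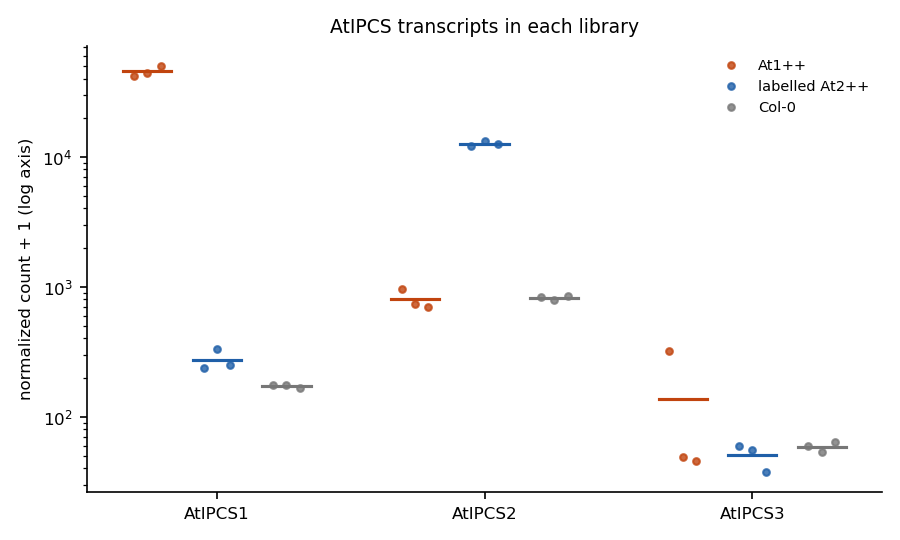
Normalized counts plus 1 (log axis) of the 3 AtIPCS transcripts in each library of At1++, of the libraries labelled At2++ and of Col-0, with 1 point per library and a bar at the mean. AtIPCS1 is high in At1++, AtIPCS2 is high in the libraries labelled At2++, and for AtIPCS3 a single At1++ library, replicate 1, stands above the rest at 318.

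In all, 305 genes were called higher in At1++ (1.37% of 22222) and 406 lower (1.83%), that is 711 genes or 3.2%. These shares over all genes are the background for every count of list members below. The median log2 fold change was 1.597 among those called higher and -1.33 among those called lower. A change of 2 or more on the log2 scale was reached by 95 genes higher and 42 genes lower. For 683 of the 711, the 3 and 3 values did not overlap, which was so for 37.7% of all genes tested. Of the 711, 601 were also called by edgeR on the recovered reads, which called 266 genes higher (1.31%) and 371 lower (1.83%) of the 20326 that it tested, or 3.13% in all. Against Col-0, 903 genes were higher in At1++ (4.06%) and 1116 lower (5.02%), whereas 1312 were higher in the libraries labelled At2++ (5.9%) and 1090 lower (4.91%), that is 9.09% of genes for At1++ and 10.8% for the libraries labelled At2++ in either direction.

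**Figure D2:**
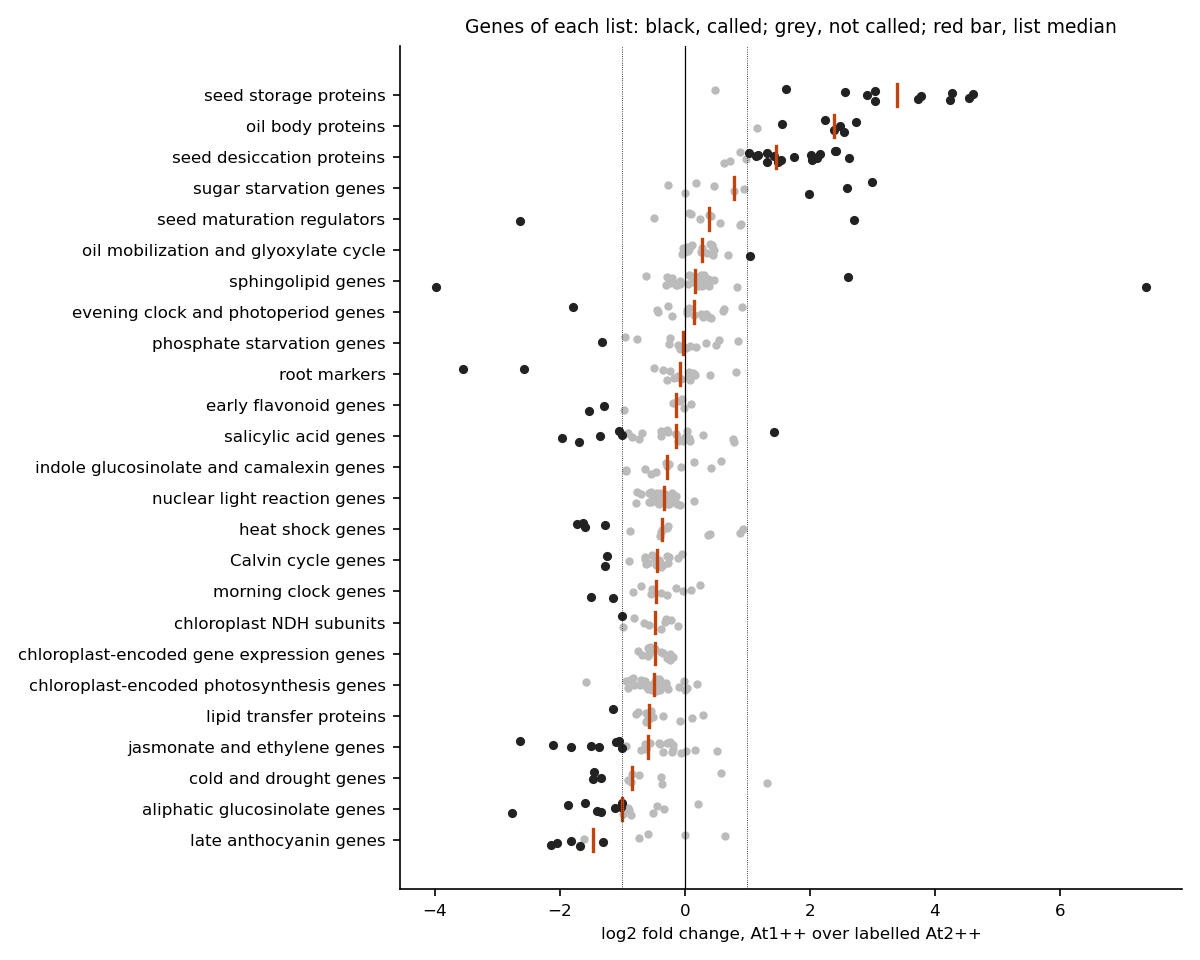
Log2 fold change of At1++ over the libraries labelled At2++ for each tested gene (point) of 25 gene lists, with called genes in black, other genes in grey and the median of each list as a red bar. The 3 seed lists lie to the right with medians of 3.39, 2.38 and 1.45, and the lists of late anthocyanin and aliphatic glucosinolate genes lie to the left with medians of -1.46 and -1.004.

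Genes of the maturing seed were higher in At1++. Of the 12 seed storage protein genes tested, 11 were called higher in At1++ and none lower, with a median log2 fold change of 3.39, against 0.00 over all genes. Summed over the 12 genes, the libraries held 32941 to 37549.9 normalized counts in At1++, 3195 to 3466 in those labelled At2++ and 48.6 to 51.9 in Col-0. Both lines thus stood above Col-0, and At1++ stood above the other line. Of all normalized counts, these genes took 0.239 ± 0.0102% in At1++ and 0.0210 ± 0.000585% in the libraries labelled At2++ (SD, n = 3 each), and the exact two-sided permutation test gave p = 0.1, the smallest that 3 libraries against 3 allow.

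CRU3 (AT4G28520), a 12S globulin of the cruciferin family, stood at 11409, 11677 and 12679 normalized counts in At1++, against 909.9, 866 and 915 in the libraries labelled At2++ and 0.927, 0 and 0 in Col-0. Its log2 fold change was 3.73 (SE 0.21, limma adjusted p = 1.99e-12). CRA1 (AT5G44120), the most abundant other cruciferin, stood at 7526, 7342 and 7855 in At1++, against 937, 951 and 879 in the libraries labelled At2++. The 3 values of each line lay close together for both genes, and the lines did not overlap. The log2 fold change of CRU2 (AT1G03880) was 4.25 and that of CRU4 (AT1G03890) 4.55. CRU4 was the least even of these genes, at 81.1, 78.0 and 85.5 in At1++ and 0.997, 1.04 and 9.599 in the libraries labelled At2++.

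The 2S albumins, small sulphur-rich storage proteins, followed. SESA3 (AT4G27160) stood at 4205, 4680.1 and 5234 in At1++, against 195, 189 and 186 in the libraries labelled At2++ and 0, 0 and 0 in Col-0, with a log2 fold change of 4.62 (SE 0.16, limma adjusted p = 8.31e-17). It had the largest log2 fold change of the list. SESA5 (AT5G54740) stood at 3506, 3634 and 4172 in At1++ and 608, 692 and 609.5 in the libraries labelled At2++, with a smaller log2 fold change of 2.56. SESA1 (3.78), SESA2 (2.92) and SESA4 (4.28) lay between. SESA1 to SESA4 are neighbouring copies of similar sequence, and how the counting shared reads among them is not stated, so that the value of each is uncertain. PAP85 (AT3G22640), a vicilin-like globulin, stood at 702, 719 and 734 in At1++, against 92.7, 85.4 and 79.7 in the libraries labelled At2++, with a log2 fold change of 3.05. The storage gene that was not called, the cupin gene AT2G18540, had 17.3, 34.5 and 14.6 in At1++ and 14.0, 12.5 and 17.3 in the libraries labelled At2++, which overlapped, against 29.7, 31.8 and 28.1 in Col-0.

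Oil bodies of the seed are coated by oleosins and caleosins. Of 7 such genes tested, 6 were called higher in At1++ and none lower, with a median log2 fold change of 2.38. OLEO1 (AT4G25140), the main oleosin, stood at 1218, 1259 and 1425 in At1++, against 231, 234 and 203 in the libraries labelled At2++ and 0, 0.935 and 2.63 in Col-0. Between the lines this was a log2 fold change of 2.54 (SE 0.28, limma adjusted p = 1.41e-07). The log2 fold changes of OLEO2 (2.38), OLEO4 (2.49) and the caleosin CLO1 (2.74) were of the same size. OLEO3, the one gene not called, had 11.2, 9.03 and 16.5 in At1++ and 4.98, 7.29 and 2.88 in the libraries labelled At2++. Its log2 fold change of 1.16 came with a limma adjusted p of 0.101.

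The genes of desiccation tolerance differed less. Of 20 tested, 16 were called higher in At1++ and none lower, with a median log2 fold change of 1.45. Their sum ran from 5429.8 to 6139 in At1++, from 1698 to 2211 in the libraries labelled At2++ and from 1289.9 to 1558 in Col-0. The 3 groups did not overlap in this sum, and Col-0 already held part of it. RAB18 (AT5G66400), a dehydrin that responds to abscisic acid, stood at 1962, 2055 and 2293 in At1++, against 809, 856 and 696 in the libraries labelled At2++ and 388, 362 and 334 in Col-0. ALPHA-TIP (AT1G73190), an aquaporin of the storage vacuole, stood at 411, 406 and 447 in At1++, against 85.7, 93.8 and 60.5 in the libraries labelled At2++. PER1 (AT1G48130), a peroxiredoxin of dormant seeds, stood at 475, 516 and 544 in At1++, against 127, 125 and 90.2 in the libraries labelled At2++. All 3 genes were higher in every At1++ library than in any library labelled At2++, with log2 fold changes of 1.42, 2.41 and 2.17 (largest limma adjusted p = 3.50e-06). The LEA genes LEA18 (AT2G35300) and LEA4-1 (AT1G32560) had lower means than Col-0 in both lines. LEA18 averaged 137 ± 12.3 in At1++, 67.9 ± 15.6 in the libraries labelled At2++ and 213 ± 48.6 in Col-0 (SD, n = 3 each). Its log2 fold change of 1.02 fell under the threshold without replicate 3 of At1++ (0.96) or without replicate 3 labelled At2++ (0.82).

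Fewer genes were called among the factors that control these genes. Of 11 seed maturation regulators tested, 1 was called higher and 1 lower (9.09% each), against 1.37% higher and 1.83% lower over all genes tested. Of the 9 that edgeR tested, it called 1 higher and 0 lower. A positive log2 fold change was found for 9 of the 11, and a limma adjusted p under 0.05, at any fold, for 6. HSFA9 (AT5G54070), a heat shock factor of developing seeds, stood at 12.9, 18.1 and 11.7 in At1++, against 1.99, 1.04 and 0.960 in the libraries labelled At2++, that is at least 4.74-fold higher with the floor set at 3 reads per library. ABI4 (AT2G40220), an AP2-type factor of abscisic acid and sugar responses, was at 0 in all 3 libraries of At1++ and at 8.97, 5.21 and 2.88 in those labelled At2++. It was at 0 in Col-0 too. The master regulators ABI3 and FUS3 had log2 fold changes of 0.89 and 0.90 and were not called, with 25.9, 33.7 and 23.3 normalized counts of ABI3 in At1++ and 19.9, 16.7 and 8.64 in the libraries labelled At2++. LEC2 averaged 0.288 in At1++ and 1.01 in the libraries labelled At2++ and was too low to be tested. Among 17 genes of oil mobilization and the glyoxylate cycle, which feed the seedling from its stored oil, the median was 0.27. Of them, 1 (5.88%) was called higher, against 1.37% over all genes tested, and none lower. That gene was ICL (AT3G21720), isocitrate lyase, at 1003, 1013 and 1084 in At1++ and 493, 507 and 495 in the libraries labelled At2++.

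**Figure D3:**
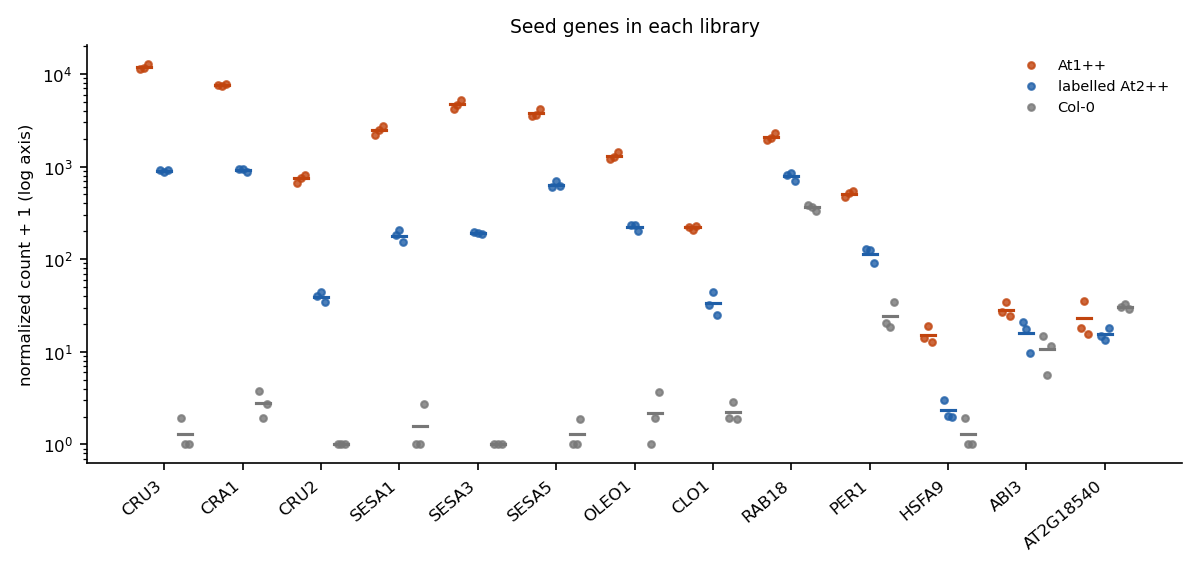
Normalized counts plus 1 (log axis) of seed genes in each library of At1++, of the libraries labelled At2++ and of Col-0, with 1 point per library and a bar at the mean. For the storage and oil body genes shown other than AT2G18540, the At1++ points lie above those labelled At2++, which lie above Col-0. CRU3, for example, has means of 11922 in At1++, 897 in the libraries labelled At2++ and 0.309 in Col-0. For the storage gene AT2G18540 the lines overlap, and Col-0 lies above the libraries labelled At2++.

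The promoters of 3 of these genes are shown because the list moved together between the lines and because seed promoters are known for the RY motif, whose core is CATGCA, and for the abscisic acid response element, whose core is ACGTG. The 250 bases before the RefSeq gene start are printed from the TAIR10.1 assembly, 5′ to 3′ on the plus strand, which is the strand of all 3 genes, with matches to CATGCA and ACGTG on either strand in capitals, as well as the G-box CACGTG, which contains ACGTG. CRU3 is read from chr4:14087306-14087555, SESA3 from chr4:13611546-13611795 and OLEO1 from chr4:12900180-12900429.
CRU3: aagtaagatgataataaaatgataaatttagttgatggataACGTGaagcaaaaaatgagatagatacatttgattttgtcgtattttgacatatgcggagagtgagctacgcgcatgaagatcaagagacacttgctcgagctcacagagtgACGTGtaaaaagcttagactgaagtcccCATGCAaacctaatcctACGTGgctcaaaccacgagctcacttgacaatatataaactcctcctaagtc
SESA3: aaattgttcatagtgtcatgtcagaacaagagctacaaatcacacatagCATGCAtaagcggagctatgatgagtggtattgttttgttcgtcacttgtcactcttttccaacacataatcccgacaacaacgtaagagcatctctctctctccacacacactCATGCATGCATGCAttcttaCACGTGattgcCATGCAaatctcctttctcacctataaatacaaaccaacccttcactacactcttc
OLEO1: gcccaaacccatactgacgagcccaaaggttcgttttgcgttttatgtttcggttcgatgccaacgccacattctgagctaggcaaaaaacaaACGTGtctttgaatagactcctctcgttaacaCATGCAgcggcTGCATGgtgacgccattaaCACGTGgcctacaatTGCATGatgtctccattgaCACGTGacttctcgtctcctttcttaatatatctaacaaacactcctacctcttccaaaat
Counting overlapping matches, CATGCA occurred 1 time before CRU3, 7 times before SESA3, where copies overlap in a run, and 3 times before OLEO1. ACGTG occurred 3, 2 and 5 times before these genes, where each CACGTG counts as 2 matches, 1 on each strand. CATGCA was found before 10 of the 12 storage genes (83.3%), 7 of the 7 oil body genes and 7 of the 20 desiccation genes (35%), against 8.32% of 23518 promoters of the same length. ACGTG was found before 8 of the storage genes (66.7%), 4 of the oil body genes (57.1%) and 18 of the desiccation genes (90%), against 23.8% of all promoters, and CACGTG before 7, 2 and 12 of them, against 7.13%. These matches describe the letters of the reference and say nothing of what binds there.

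Beyond the lists, the 12 genes with the largest rise in At1++ over the libraries labelled At2++ (mean of at least 50, called by limma and edgeR, no overlap) had log2 fold changes from 2.56 to 3.50. AT4G11310, a papain-like cysteine protease gene, stood at 262, 259.5 and 288 in At1++, against 29.9, 16.7 and 24.0 in the libraries labelled At2++ and 1.85, 4.67 and 1.76 in Col-0. NSP2 (AT2G33070), a nitrile-specifier protein of glucosinolate breakdown that is known from seeds, stood at 1058, 1091 and 1061 in At1++, against 160.4, 175 and 161 in the libraries labelled At2++ and 1.85, 0 and 1.76 in Col-0. The beta-glucosidase BGLU19 (AT3G21370) and its neighbour AT3G21380, a lectin gene, had log2 fold changes of 2.85 and 3.33. AT2G28490, a cupin gene, had 2.92, AT2G27380, an extensin-like gene, 3.33, and the glycine-rich protein gene AT2G05580 2.97. The remaining 5 were AT5G59170, AT1G47980, MLP31, AT1G14930 and GASA3, a gibberellin-regulated peptide gene. In Col-0, the means of the 12 genes ran from 0 for GASA3 to 24.0 for BGLU19.

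Some genes of aliphatic glucosinolate and late anthocyanin synthesis, in contrast, were lower in At1++. Of 16 aliphatic glucosinolate genes tested, 8 were called lower in At1++ and none higher, with a median log2 fold change of -1.004. Aliphatic glucosinolates are defence compounds made from chain-elongated methionine. CYP79F1 (AT1G16410), the enzyme of the first core step, stood at 174, 140.4 and 129 in At1++, against 987, 1001 and 1028 in the libraries labelled At2++ and 94.6, 129.9 and 134 in Col-0. The fit gave a log2 fold change of -2.77 (SE 0.14, limma adjusted p = 4.19e-13). At1++ was thus near Col-0 for this gene and the libraries labelled At2++ were above both. CYP79F2, its close neighbouring copy, was not called (-0.50), and how reads were shared between the copies is not stated, so that both values are uncertain.

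The next enzyme, CYP83A1 (AT4G13770), averaged 899 ± 139 in At1++, 2262 ± 181 in the libraries labelled At2++ and 470.4 ± 28.0 in Col-0 (SD, n = 3 each). BCAT4 (AT3G19710), which starts the chain elongation, had a log2 fold change of -1.41, and IMD1 (AT5G14200), an isopropylmalate dehydrogenase of the same cycle, -1.12. FMO GS-OX1 (AT1G65860), which oxidizes the side chain, had -1.87 and the sulphotransferase SOT17 -1.03. Among the MYB factors of the pathway, MYB76 (-1.59) and MYB29 (-1.01) were called lower and MYB28 (0.21) was not called. SOT17 lost its call without replicate 1 of At1++ (-0.94) or replicate 2 labelled At2++ (-0.99), and MYB29 without replicate 3 of either line (-0.77 and -0.93). Against Col-0, 4 of the 16 genes were higher in At1++ and 12 were higher in the libraries labelled At2++, with medians of 0.51 in At1++ and 1.62 in the libraries labelled At2++. None of 12 indole glucosinolate and camalexin genes was called, with a median of -0.29. The largest of their absolute log2 fold changes was -0.94.

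Late anthocyanin genes make the red pigments and move them to the vacuole. Of 10 tested, 5 were called lower and none higher, with a median log2 fold change of -1.46, or -1.03 where genes with a line at the floor are set at their bound. LDOX (AT4G22880), leucoanthocyanidin dioxygenase, stood at 32.8, 34.5 and 27.2 in At1++, against 135, 151 and 142 in the libraries labelled At2++ and 3.71, 5.61 and 1.76 in Col-0. DFR (AT5G42800), dihydroflavonol reductase, stood at 72.5, 73.9 and 60.2 in At1++, against 223, 210.5 and 235 in the libraries labelled At2++ and 1.85, 3.74 and 4.39 in Col-0. The libraries labelled At2++ were above every At1++ library for both genes, and both lines were above Col-0. The log2 fold changes were -2.15 for LDOX, -1.68 for DFR, -2.05 for the glycosyltransferase UF3GT, -1.83 for the transport protein GSTF12 and -1.32 for UGT75C1 (limma adjusted p from 1.96e-05 to 0.00594). With a pseudocount of 0.1 in place of 1, 3 genes of the list were called lower. Among the regulators, TT8 (-0.74), EGL3 (0.00) and the repressor MYBL2 (-0.58) were not called, and PAP1 had at most 5.76 normalized counts in any library of the lines.

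The early flavonoid genes feed the same pathway, and of 8 tested, 2 were called lower in At1++. CHS (AT5G13930), chalcone synthase, stood at 815, 729 and 845 in At1++, against 2105, 2509.96 and 2289 in the libraries labelled At2++ and 324, 351 and 323 in Col-0. FLS1 (AT5G08640), flavonol synthase, stood at 142, 125 and 139 in At1++, against 322, 344 and 328 in the libraries labelled At2++. Their log2 fold changes were -1.53 and -1.29, whereas the factors MYB12 (0.10), MYB111 (-0.19) and HY5 (-0.04) were not called.

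**Figure D4:**
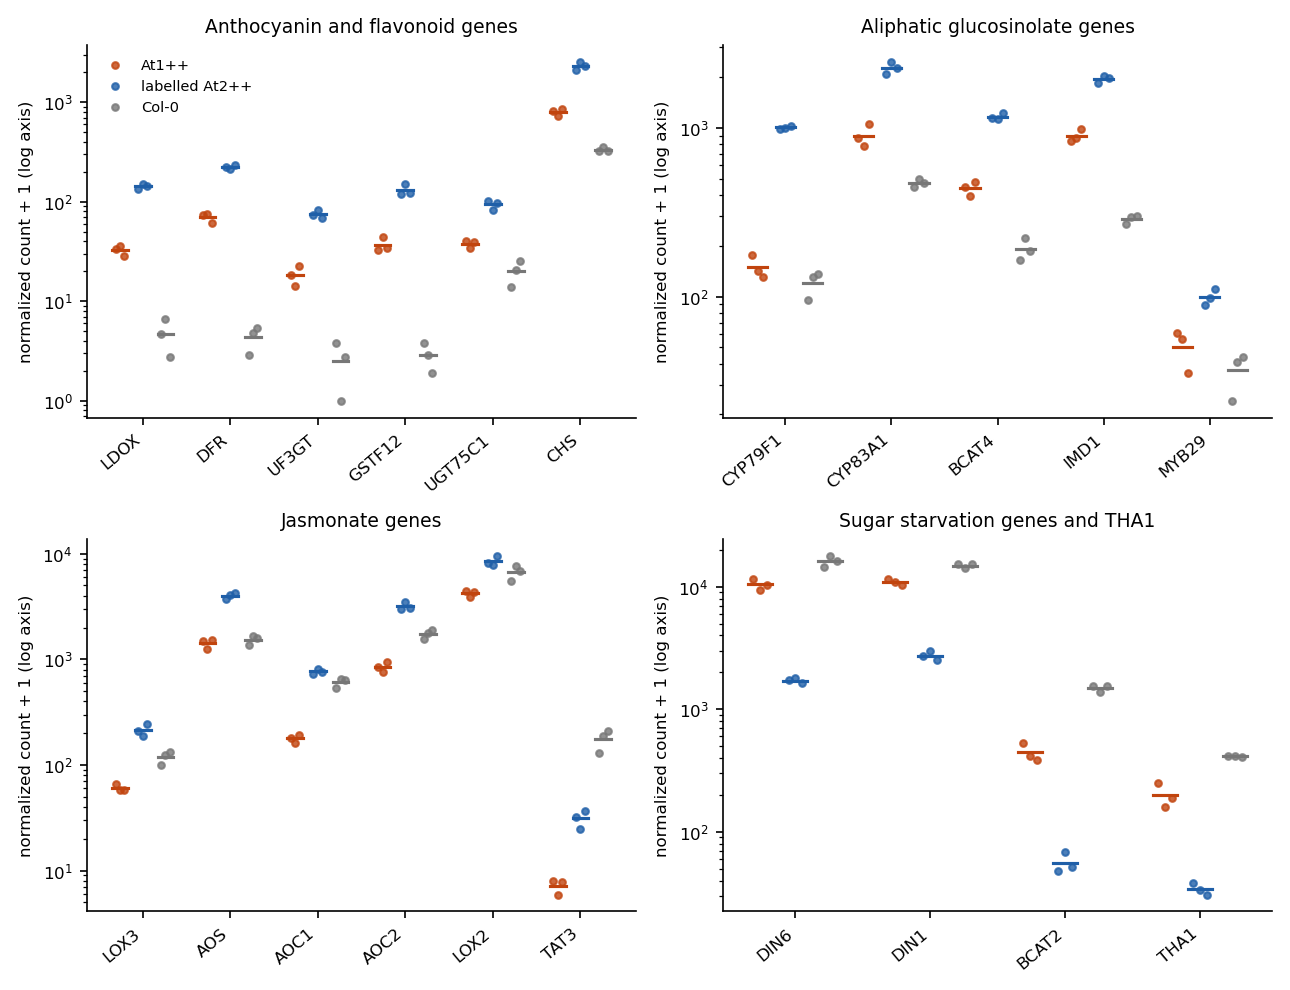
Normalized counts plus 1 (log axis) in each library of At1++, of the libraries labelled At2++ and of Col-0 for genes of anthocyanins, aliphatic glucosinolates, jasmonate and sugar starvation, 1 panel each, with 1 point per library and a bar at the mean. In the anthocyanin, glucosinolate and jasmonate panels the libraries labelled At2++ stand above At1++, and in the starvation panel they stand below it, with BCAT2 at a mean of 444 in At1++ and 55.1 in the libraries labelled At2++.

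Jasmonate is made from linolenic acid, starting in the plastid, and several of its synthesis genes were lower in At1++. Of 26 jasmonate and ethylene genes tested, 8 were called lower in At1++ and none higher, with a median log2 fold change of -0.59. AOS (AT5G42650), allene oxide synthase, stood at 1476, 1242 and 1535 in At1++, against 3705, 4059 and 4216 in the libraries labelled At2++ and 1355, 1658 and 1574 in Col-0. Between the lines this was a log2 fold change of -1.50 (SE 0.08, limma adjusted p = 1.13e-12). The At1++ values overlapped those of Col-0, and the libraries labelled At2++ were higher than both. The lipoxygenases LOX2 (-1.004), LOX3 (-1.82) and LOX4 (-1.37) were called lower, and OPR3 (-0.94), a later step in the peroxisome, was not. The call of LOX2 was lost without replicate 2 of At1++ (-0.95) or replicate 3 labelled At2++ (-0.93). The allene oxide cyclases AOC1 (AT3G25760) and AOC2 (AT3G25770), which the rule for the largest falls named, averaged 177 and 843 in At1++, against 767 and 3174 in the libraries labelled At2++. These copies share much of their sequence, so that the value of each is uncertain.

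Of the genes that respond to jasmonate, TAT3 (AT2G24850), a tyrosine aminotransferase, stood at 6.90, 4.93 and 6.80 in At1++, against 30.9, 24.0 and 35.5 in the libraries labelled At2++ and 129, 189 and 211 in Col-0. TPS04 (AT1G61120), which makes geranyllinalool, had 0.863, 0 and 0 in At1++ and 17.9, 1.04 and 10.6 in the libraries labelled At2++, against 34.3, 43.0 and 50.05 in Col-0. Both genes were below Col-0 in both lines, and further below it in At1++ (for TAT3, log2 fold changes against Col-0 of -4.60 in At1++ and -2.50 in the libraries labelled At2++). CLH1, chlorophyllase, had a log2 fold change of -1.11 and CORI3, a cystine lyase, -1.06, or -0.999 without replicate 3 labelled At2++. The vegetative storage proteins VSP1 (-0.63) and VSP2 (-0.62) and the 5 JAZ repressors tested, from -0.64 for JAZ7 to -0.19 for JAZ1, were not called. The defensins PDF1.2A, PDF1.2B and PDF1.2C, which are near-identical copies, averaged 2.301, 0.288 and 1.70 in At1++, 1.33, 0.652 and 1.67 in the libraries labelled At2++ and 527, 167 and 228 in Col-0. They were at a few counts in both lines and gave no difference that could be read between them.

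Some genes known to rise in dark-kept or sugar-starved plants were higher in At1++. Of 9 tested, 3 were called higher in At1++ and none lower, with a median log2 fold change of 0.78. DIN6 (AT3G47340), an asparagine synthetase, stood at 11634, 9379.8 and 10271 in At1++, against 1718, 1787 and 1640.5 in the libraries labelled At2++ and 14416, 17689.7 and 16089.8 in Col-0. DIN1 (AT4G35770), a senescence-associated gene, stood at 11457, 10929 and 10303 in At1++, against 2716, 2983 and 2530.3 in the libraries labelled At2++ and 15229.8, 14086 and 15308 in Col-0. BCAT2 (AT1G10070), which breaks down branched-chain amino acids, stood at 529, 418 and 385 in At1++, against 46.8, 67.7 and 50.9 in the libraries labelled At2++ and 1543, 1388 and 1546 in Col-0. In these 3 genes the libraries labelled At2++ were far below Col-0 and At1++ lay between, with log2 fold changes between the lines of 2.60, 1.99 and 2.99 (largest limma adjusted p = 1.58e-16). Against Col-0, 3 of the 9 genes were lower in At1++ and 8 in the libraries labelled At2++, with medians of -0.62 in At1++ and -2.44 in the libraries labelled At2++. DIN2 and DIN11 were low in both lines, at 25.6 and 60.7 in At1++, 24.2 and 49.99 in the libraries labelled At2++ and 487 and 1008 in Col-0.

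Photosynthesis genes differed by small amounts that mostly stayed under the fold threshold. None of 35 chloroplast-encoded genes of the photosystems, cytochrome complex, ATP synthase and Rubisco and none of 15 chloroplast-encoded genes of gene expression was called, with medians of -0.49 and -0.48. Of 10 NDH subunits, which belong to the chloroplast complex of cyclic electron flow, NDHK was called lower, at 162, 101 and 71.9 in At1++ and 178, 247 and 222 in the libraries labelled At2++ against 10.2, 25.2 and 7.02 in Col-0. Its limma adjusted p was 0.0407, and the call was lost without replicate 2 or 3 of either line, with log2 fold changes from -0.98 to -0.74 and adjusted p from 0.0799 to 0.186. The median of the NDH genes against Col-0 was 3.53 in At1++ and 4.11 in the libraries labelled At2++. The libraries were made with a messenger RNA kit, and how evenly it recovered chloroplast transcripts was not tested. Counts of chloroplast-encoded genes may therefore differ from their transcript levels. All chloroplast-encoded genes took 0.240 ± 0.0516% of normalized counts in At1++, 0.308 ± 0.0348% in the libraries labelled At2++ and 0.0452 ± 0.0204% in Col-0 (SD, n = 3 each). The difference between the lines was -0.0679 percentage points (exact two-sided permutation p = 0.3, with 0.1 the smallest possible). Replicate 1 of At1++ lay among the libraries labelled At2++. Of 92 chloroplast-encoded genes tested, 87 had a negative log2 fold change of At1++ over the libraries labelled At2++ and 5 a positive one. These genes were read in the same libraries and are not independent. The share also varied within a group, from 0.405 to 0.990% in the libraries labelled At2+.

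Among 51 nuclear genes of the light reactions none was called, with a median of -0.33 and a range of -0.79 to 0.15. Of 20 Calvin cycle genes, 2 (10%) were called lower in At1++, against 1.83% over all genes tested, and none higher, with a median of -0.45. RBCS1B (AT5G38430), a small subunit of Rubisco, stood at 14043, 13897 and 15709.8 in At1++, against 32677, 40666 and 32865 in the libraries labelled At2++ and 8025, 8195 and 7899 in Col-0. CP12-2 (AT3G62410), a regulator that binds Calvin cycle enzymes in the dark, stood at 3164, 3106 and 3625 in At1++, against 7305, 9345 and 7069.7 in the libraries labelled At2++ and 2239.9, 2124 and 2099 in Col-0. Both genes were above Col-0 in both lines and did not overlap between the lines. Their log2 fold changes were -1.28 and -1.25, while the copies RBCS1A (-0.39), RBCS2B (-0.47) and RBCS3B (-0.35), whose sequences are close, were not called. Against Col-0, 3 of the 20 genes were higher in At1++ and 14 in the libraries labelled At2++, with medians of 0.66 in At1++ and 1.24 in the libraries labelled At2++.

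The clock was read from morning and evening genes. Of 12 morning genes, 2 (16.7%) were called lower in At1++, against 1.83% over all genes tested, and none higher, with a median of -0.46. CCA1 (AT2G46830) stood at 10.4, 9.85 and 5.83 in At1++, against 25.9, 16.7 and 18.24 in the libraries labelled At2++ and 56.6, 39.3 and 52.7 in Col-0. LHY (AT1G01060), its partner, stood at 9.49, 10.7 and 8.74 in At1++, against 24.9, 29.2 and 33.6 in the libraries labelled At2++ and 24.1, 40.2 and 25.5 in Col-0. LHY was thus near Col-0 in the libraries labelled At2++ and lower in At1++ (log2 fold change -1.50, limma adjusted p = 8.98e-05), and CCA1 was lower than Col-0 in both lines. Its difference between the lines (-1.15, limma adjusted p = 0.0163) was -0.91 without replicate 3 of At1++ (adjusted p = 0.0835) and -0.97 without replicate 1 labelled At2++ (adjusted p = 0.075). Of 17 evening and photoperiod genes, 1 (5.88%) was called, lower in At1++, against 1.83% over all genes tested, with a median of 0.15. That gene was FT (AT1G65480), the mobile flowering signal, at 4.31, 4.93 and 1.94 in At1++ and 14.9, 13.5 and 15.4 in the libraries labelled At2++, against 0.927, 3.74 and 3.51 in Col-0, and without replicate 3 of At1++ its limma adjusted p was 0.0682. TOC1 (0.41), GI (0.30) and CO (0.91) were not called.

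Of 27 salicylic acid genes tested, 5 (18.5%) were called lower in At1++ and 1 (3.70%) higher, with a median of -0.15. Over all genes tested, 1.83% were called lower and 1.37% higher. PR1 stood at 16.4, 0.821 and 1.94 in At1++, against 0.997, 2.08 and 1.92 in the libraries labelled At2++ and 1771, 1584 and 1754 in Col-0, and the lines were not distinguished by the test. PR2 (AT3G57260), a glucanase, stood at 7.77, 2.46 and 0.972 in At1++, against 10.96, 16.7 and 8.64 in the libraries labelled At2++ and 312, 338 and 392 in Col-0. The factors WRKY18 (-1.36) and WRKY40 (-1.01), NIMIN1 (-1.96), which binds the receptor NPR1, and ALD1 (-1.06), which starts pipecolate synthesis, were also called lower. The count depended on single libraries, since 3 genes were called lower without replicate 2 of At1++, 3 without replicate 3 of At1++ and 2 without replicate 2 labelled At2++. NIMIN1 averaged only 1.42 normalized counts in At1++ and 7.39 in the libraries labelled At2++. It lost its call without replicate 3 of At1++ (limma adjusted p = 0.09) or replicate 2 labelled At2++ (limma adjusted p = 0.0796). WRKY40 fell to -0.97 without replicate 2 of either line. ALD1 kept its call in 1 of the 6 fits that left out a library (limma adjusted p = 0.0406 with all libraries, from 0.0514 to 0.184 without any one but replicate 1 of At1++). FMO1 (AT1G19250), which hydroxylates pipecolate, was called higher at 17.3, 14.0 and 12.6 in At1++ and 2.99, 2.08 and 14.4 in the libraries labelled At2++, although the groups overlapped, and its log2 fold change of 1.43 was 0.98 without replicate 2 labelled At2++. ICS1 (-0.03), EDS1 (-0.11), PAD4 (-0.07) and NPR1 (0.07), at the centre of salicylic acid synthesis and signalling, were not called.

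Of 14 heat shock genes, 4 (28.6%) were called lower in At1++, against 1.83% over all genes tested, and none higher, with a median of -0.37. HSP90.1 (AT5G52640), a chaperone, stood at 163, 119 and 137 in At1++, against 429, 478 and 477 in the libraries labelled At2++ and 139, 179 and 136 in Col-0. The others were the factor HSFA2 (-1.62), HSP70-4 (-1.28), which has close copies, and the mitochondrial HSP23.5 (-1.59). In these 4 genes At1++ was near Col-0, with means of 13.9, 460.04 and 46.9 in At1++, against 10.3, 337 and 32.3 in Col-0 for the last 3. Of 11 cold and drought genes, 3 (27.3%) were called lower, against 1.83% over all genes tested, and none higher, with a median of -0.85. KIN1 (AT5G15960) stood at 345, 371 and 363 in At1++, against 909, 1251 and 885 in the libraries labelled At2++, and KIN2 had a log2 fold change of -1.35. KIN1 and KIN2 are neighbouring copies, so that the value of each is uncertain, and GOLS3 (-1.45), a galactinol synthase, rested on at most 8.34 normalized counts in a library of the lines and lost its call without replicate 1 or 3 of At1++ or replicate 2 labelled At2++ (limma adjusted p from 0.0579 to 0.105). COR15A (-0.86), COR15B (-0.91) and RD29A (-0.85) were not called.

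Of 39 sphingolipid genes tested, 2 were called higher and 1 lower, with a median of 0.17, and AtIPCS1 and AtIPCS2 themselves made up 2 of these 3. Over all genes tested 3.2% were called. The remaining call was GINT1 (AT5G04500), a glycosyltransferase that adds N-acetylglucosamine to the head group of inositol phosphorylceramide, which is known for its role in seeds. It stood at 24.2, 10.7 and 17.5 in At1++, against 1.99, 1.04 and 2.88 in the libraries labelled At2++ and 0.927, 0 and 0 in Col-0, so that At1++ was at least 5.82-fold higher than the floor of 3 reads per library. IPUT1, which adds the first sugar, had 0.19, the ceramide synthases LOH1 to LOH3 -0.07, 0.06 and -0.23, the palmitoyltransferase subunits LCB1 0.22 and LCB2A 0.38, and the ceramide kinase ACD5 0.26. None of these was called. Among 13 lipid transfer protein genes, 1 (7.69%) was called, lower in At1++, against 1.83% over all genes tested. This was DIR1-LIKE (AT5G48490), at 153, 163 and 203 in At1++, against 379.7, 477 and 310.05 in the libraries labelled At2++. Its log2 fold change of -1.15 was -0.996 without replicate 2 labelled At2++.

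Of 18 root markers, 2 (11.1%) were called lower in At1++, against 1.83% over all genes tested, and none higher. The median of -0.08 was close to 0. Cell type markers such as SCR (0.14), SHR (0.13), WOX5 (-0.23) and CASP1 (-0.35), and root hair genes such as EXPA7 (-0.18) and COBL9 (-0.12), were not called. The summed level of the list ran from 36928 to 39213 in At1++ and from 44205 to 48190 in the libraries labelled At2++. The 2 genes called code for uptake transporters. NRT2.1 (AT1G08090), a nitrate transporter, stood at 5.18, 2.46 and 1.94 in At1++, against 46.8, 54.2 and 37.4 in the libraries labelled At2++ and 0, 0 and 0.878 in Col-0. IRT1 (AT4G19690), the iron transporter of the root surface, stood at 217, 161 and 165 in At1++, against 1007, 1068 and 1133 in the libraries labelled At2++ and 456, 696 and 707 in Col-0. The log2 fold changes were -3.55 and -2.57. Of 14 phosphate starvation genes, the transporter PHT1.1 (AT5G43350) was the one called (7.14%, against 1.83% lower over all genes tested), with a log2 fold change of -1.33.

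The 12 genes with the largest falls outside the lists included a pair of further genes of iron uptake. FRO2 (AT1G01580), the ferric reductase of the root, stood at 105, 72.3 and 70.9 in At1++, against 480.4, 392 and 578 in the libraries labelled At2++ and 182, 268 and 322 in Col-0. CYP82C4 (AT4G31940), which makes an iron-mobilizing coumarin, stood at 74.2, 54.2 and 99.1 in At1++, against 419, 407 and 518 in the libraries labelled At2++ and 55.6, 109 and 111 in Col-0. The libraries labelled At2++ lay above At1++ and Col-0 in both genes, and the log2 fold changes were -2.54 and -2.58. AT2G38240, a dioxygenase gene, had the largest fall (-3.27), at 26.7, 14.0 and 5.83 in At1++, against 125, 125 and 159 in the libraries labelled At2++ and 114, 156 and 116 in Col-0. The others, besides AOC1 and AOC2, were CYP97B3, AT5G04120, the subtilase gene AT5G59130, AT4G16000, AT3G04480, AT3G28270 and the germin-like gene GLP9, from -2.80 to -1.84.

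Genes with reads in one line only were sought as those with at most 3 reads in each library of a line and at least 20 in each library of the other. There were 2 such genes in At1++ and 0 in the libraries labelled At2++, which with at least 10 reads became 6 and 2. AT3G44006 stood at 63.0, 74.7 and 79.7 in At1++, against 0.997, 0 and 0 in the libraries labelled At2++ and 32.4, 26.2 and 30.7 in Col-0, so that At1++ was at least 24.2-fold higher. AT5G55750 stood at 30.2, 23.0 and 31.1 in At1++, against 2.99, 2.08 and 0 in the libraries labelled At2++ and 0.927, 0 and 0 in Col-0, at least 9.37-fold higher. The first gene thus had at most 1 read in a library labelled At2++ while Col-0 had more, and the second was at the floor in Col-0 too. None of the 4 nearest genes measured around each was called.

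Some of the differences set 1 line apart from every other library of the series, taken here as a gap of at least 1 on the log2 scale to the nearest value of the 17 other libraries. This rule was chosen after the values were seen, and the genes are given with no test. At1++ stood above all others in 13 genes and below all others in 11. Beside AtIPCS1, the 13 held seed genes such as CRU3, PAP85, EM6, ECP31, BETA-TIP and M17, an embryo gene at 1297 ± 33.0 in At1++ and 277 ± 18.9 in the libraries labelled At2++ (SD, n = 3 each). The 11 below all others included TAT3, FAMT, a farnesoic acid methyltransferase, at 4.24 in At1++ and 32.7 in the libraries labelled At2++, and AT5G41300 at 3.49 in At1++ and 18.22 in the libraries labelled At2++.

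The libraries labelled At2++ stood above all others in 11 genes and below them in 5. Among the 11 were 6 anthocyanin genes, LDOX, DFR, UF3GT, GSTF12, UGT75C1 and the malonyltransferase AT5MAT, as well as NRT2.1, HSP90.1, FMO GS-OX3, AT1G73600 and AT3G04480. AT3G04480 averaged 467 ± 8.65 in At1++, 2031 ± 302 in the libraries labelled At2++ and 447 ± 13.0 in Col-0 (SD, n = 3 each), and its neighbour AT3G04485 was called in the opposite direction, with a log2 fold change of 1.28. Below all others were BCAT2, THA1, GLYI7, IQD28 and AT2G06995. THA1 (AT1G08630), threonine aldolase, averaged 198 ± 45.5 in At1++, 33.0 ± 3.61 in the libraries labelled At2++ and 411 ± 3.06 in Col-0. IQD28 (AT1G14380) averaged 628 ± 22.8 in At1++, 146 ± 6.29 in the libraries labelled At2++ and 616 ± 67.7 in Col-0, and so was at the level of Col-0 in At1++.

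A further 6 genes set the libraries labelled At2+ and At2++ together apart from the 11 libraries of the other lines. Beside AtIPCS2, CYP97B3, scpl44 and AT5G04120 were higher and AT3G44006 and AT2G15042 lower. CYP97B3 (AT4G15110), a cytochrome P450, averaged 226 in At1++, 1561 in the libraries labelled At2++, 1216 in those labelled At2+ and 1120.03 in Col-0. It was thus near or above Col-0 in the libraries labelled At2++ and At2+, and well below it in At1++. The carboxypeptidase-like gene scpl44 (AT1G43780) stood at 0.863, 1.64 and 0 in At1++, against 40.9, 27.1 and 16.3 in the libraries labelled At2++ and 0, 0 and 0 in Col-0, so that the libraries labelled At2++ were at least 10.6-fold higher than At1++. AT2G15042 averaged 63.3 in At1++, 4.33 in the libraries labelled At2++, 5.10 in those labelled At2+ and 91.7 in Col-0.

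**Figure D5:**
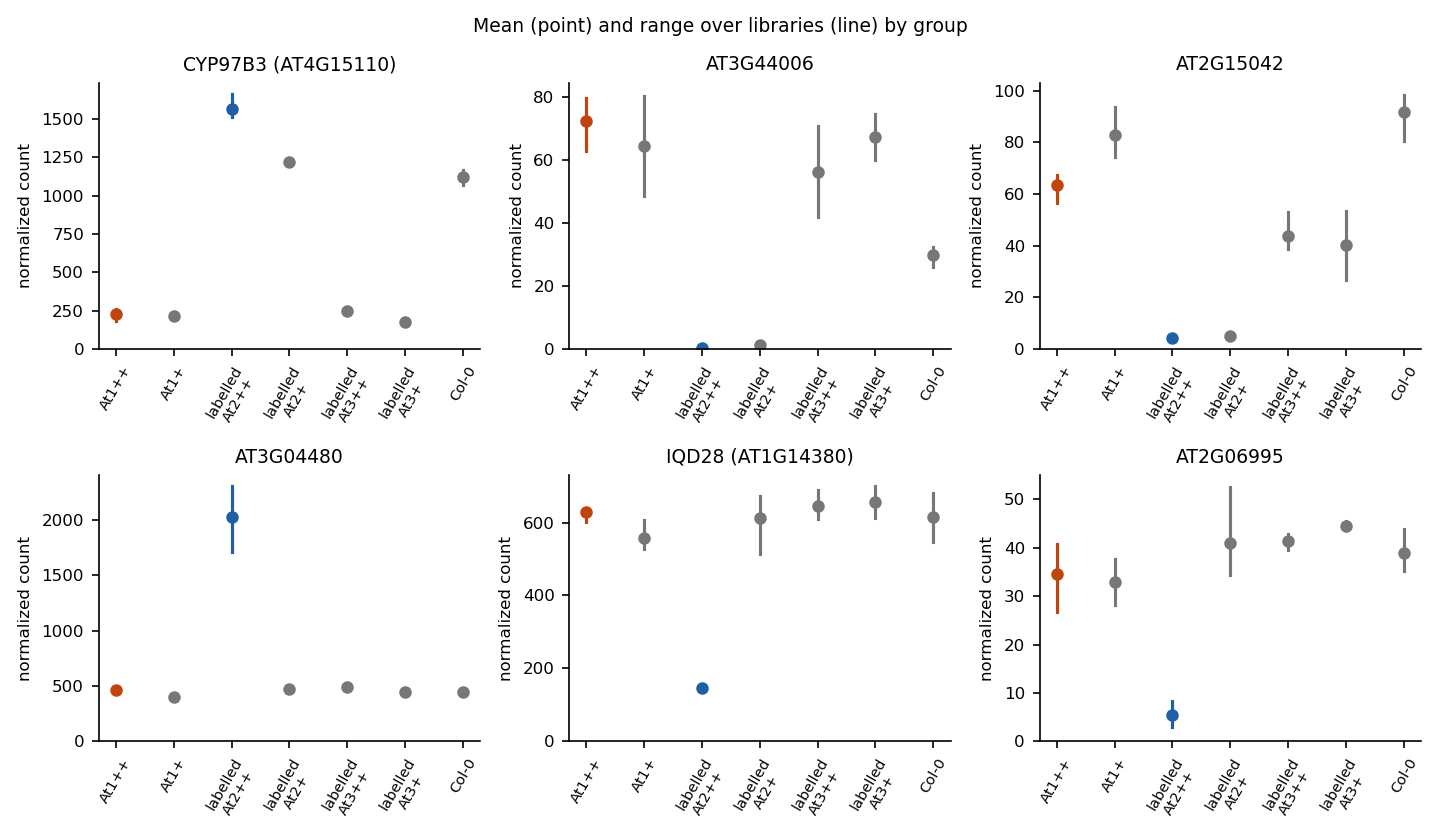
Mean (point) and range over libraries (line) of the normalized count in all 7 groups of the series for 6 genes that separate the lines, with a linear axis that starts at 0. CYP97B3 is high in the libraries labelled At2++ and At2+ and in Col-0, AT3G44006 and AT2G15042 are near 0 in both groups labelled At2, and AT3G04480, IQD28 and AT2G06995 differ from every other group in the libraries labelled At2++ alone.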

How the data were processed

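Single-end libraries of messenger RNA from whole seedlings were made with a stranded kit, and the strand setting of the counting is not given in the sources used here. The authors aligned reads with STAR, counted them on genes with HTSeq and normalized the counts with DESeq2 (DESeq in the submitters' processing notes), with versions not given. The deposited signal is the normalized count, or reads scaled by a size factor per library. The table holds 25263 genes and 21 libraries, and 14 genes are 0 everywhere. A count test had been planned, and limma took its place because the deposited values are normalized. Whole reads (within 0.01 of a whole number) were recovered for 100% of values. On log2(value + 1), limma 3.58.1 (R 4.3.3) was run with trended variance on the 7 groups without covariates. The 22222 genes whose mean reached 1 were tested, and p-values were adjusted over all of them by Benjamini-Hochberg. Shares of counts were compared by exact permutation (Python 3.11.15, scipy 1.17.1).

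Depth was 12733113 to 17210244 reads on genes per library, and 3 reads or fewer on a gene count as the floor of a library. Between replicates 1 and 2 labelled At3+ every value was the same, which is less than sampling noise, and they entered as 1 sample. Folds and floors cover counting error and the spread between libraries only. Names, positions and promoters come from the RefSeq annotation of TAIR10.1, in which 25090 of the gene IDs were matched. The other 173 are 102 chloroplast and 71 mitochondrial IDs, named by the list. The build used by the authors was not compared, since the values carry no coordinates.

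Named genes are the 3 AtIPCS transcripts, members of the 25 lists, the 12 highest and the 12 lowest log2 fold changes outside the lists among genes called by limma and edgeR with a mean of at least 50 and no overlap, and genes with reads in one line only. The lists and the pair of lines were chosen with earlier results of these data known. The lists hold 463 genes, of which 453 are in the table and 444 were tested. The alternatives were edgeR 4.0.16 and DESeq2 1.42.0 on the recovered reads, a pseudocount of 0.1, no filter, a mean of at least 10, scaling over nuclear genes, a fit of the 6 libraries alone, the replicate block, each of these 6 left out, and other thresholds. The scaling alternatives moved the median over all genes by less than 0.1 on the log2 scale. The main limma fit, edgeR and DESeq2 were tested on simulated data, and the other alternatives were not.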

Additional observations from a re-analysis of the deposited data

Results flagged for a closer look

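For 3 genes the lines moved to opposite sides of Col-0, each called against Col-0, and the test between the lines was called too. Because the genes were picked for opposite changes in the same fit, a large difference between the lines follows from the choice. The call between the lines is thus no separate evidence. AT3G44006 had a log2 fold change of 5.86 for At1++ over the libraries labelled At2++ (limma adjusted p = 3.74e-12), with 1.25 for At1++ and -4.61 for the libraries labelled At2++ against Col-0. S8H (AT3G12900), a scopoletin hydroxylase of iron-mobilizing coumarin synthesis, had -2.93 (limma adjusted p = 1.24e-06), at 3.69 ± 3.00 in At1++, 29.8 ± 6.70 in the libraries labelled At2++ and 9.14 ± 1.02 in Col-0 (SD, n = 3 each). AT1G76955 had -2.50 (limma adjusted p = 5.44e-06), at 5.40 ± 2.06 in At1++, 34.2 ± 4.098 in the libraries labelled At2++ and 14.3 ± 3.82 in Col-0. In all 3 genes the values of the lines did not overlap.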

How the results depend on the processing

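Leaving out 1 library gave 265 to 322 genes higher and 352 to 440 lower, 11 storage, 6 oil body and 15 to 17 desiccation genes higher, and in genes lower 6 to 9 of jasmonate and ethylene, 5 of late anthocyanin, 2 to 4 of cold and drought, 4 to 5 of heat shock and 7 to 9 of aliphatic glucosinolate genes. The count of salicylic acid genes lower ran from 2 to 6, with 3 in DESeq2, 3 at an adjusted p under 0.01 and 9 with no minimum on the fold. With no minimum on the fold, 2733 genes were higher and 3342 lower, among them 13 jasmonate and ethylene, 8 cold and drought and 15 aliphatic glucosinolate genes lower and 6 starvation genes higher. With a mean of at least 10, 200 genes were higher. With a pseudocount of 0.1, 3 late anthocyanin genes were lower. Genes with reads in At1++ only numbered 6 at a minimum of 10 reads and 1 at 50, and 2 in the libraries labelled At2++ at a minimum of 10. The log2 fold change of AtIPCS3 was 1.47 in edgeR (adjusted p = 0.0192), 1.46 in DESeq2 (0.0302), and from -0.080 to 1.32 with 1 library left out. That of IRT2 ran from -0.026 without replicate 3 of At1++ to 0.23 without replicate 3 labelled At2++. The cause was not tested. Of 146 genes named one by one, 122 kept their direction and their side of the threshold in all 16 alternatives. With the replicate block 697 genes were called, 692 of them shared with the 711 called without it. Deviations of libraries with the same number had correlations of 0.0145, -0.1066 and -0.2485, so that the numbers were taken as names only.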

Other observations

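Further genes of iron uptake were read after IRT1, FRO2 and CYP82C4 had been seen to be lower in At1++, so that their values are given with no test (mean ± SD, n = 3 in each group). Arabidopsis reduces iron at the root surface with FRO2, imports it with IRT1 and releases coumarins to mobilize it. The factor FIT (AT2G28160), which drives these genes, averaged 72.2 ± 14.0 in At1++, 138 ± 10.3 in the libraries labelled At2++ and 85.5 ± 14.8 in Col-0. Among its partner factors, BHLH100 averaged 71.6 ± 13.6 in At1++, 177 ± 27.9 in the libraries labelled At2++ and 119 ± 12.2 in Col-0, and BHLH101 averaged 44.9 ± 3.796 in At1++, 109 ± 7.43 in the libraries labelled At2++ and 206 ± 26.6 in Col-0. BHLH38 averaged 42.9 ± 2.51 in At1++, 88.8 ± 11.4 in the libraries labelled At2++ and 85.1 ± 15.3 in Col-0, and BHLH39 averaged 89.4 ± 2.61 in At1++, 166 ± 30.5 in the libraries labelled At2++ and 165 ± 7.25 in Col-0. Of the coumarin genes, F6'H1 (AT3G13610), which makes the precursor of scopoletin, averaged 177 ± 31.2 in At1++, 401 ± 34.1 in the libraries labelled At2++ and 467 ± 32.1 in Col-0, and the exporter ABCG37 averaged 991 ± 81.5 in At1++, 1561 ± 377 in the libraries labelled At2++ and 1056 ± 69.4 in Col-0. MTPA2 (AT3G58810), a zinc transporter of the vacuole, averaged 78.3 ± 9.33 in At1++, 258 ± 24.6 in the libraries labelled At2++ and 199 ± 12.3 in Col-0. IRT2, a close relative of IRT1, averaged 24.9 ± 4.58 in At1++, 22.9 ± 3.97 in the libraries labelled At2++ and 25.1 ± 6.16 in Col-0, a difference within the spread between libraries. Of these 9 genes, all but IRT2 had a lower mean in At1++ than in the libraries labelled At2++.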
